A study of Arabidopsis thaliana with 18 samples.

Results

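The response to hydrogen peroxide (H2O2) was examined in Arabidopsis thaliana seedlings of the line named CRF6oe, an overexpressor of the transcription factor gene CRF6. It was read from 4 of the 18 arrays of the study, chosen by their titles: 2 arrays of CRF6oe seedlings with H2O2 and 2 of CRF6oe seedlings left untreated. The analysis covers the 16722 of 38408 array features that the platform's probe table pairs with exactly 1 gene, with the brightest feature standing for each gene, which gave 16548 genes. The other groups of the study were CRF6oe with benzyl adenine (BA, a cytokinin) and, for both the crf6 mutant and the wild type (WT, Col-0), the same 3 conditions, with 2 arrays in each of the 9 groups. All seedlings were 10 days old and had been lifted from plates onto 3 mM MES buffer, where they floated for 1 h. H2O2 was then given at 20 mM, or BA at 2 µM, for 6 h, and treated and control solutions alike held 0.2% DMSO. No treatment time is recorded for the untreated samples. The labels do not name the promoter that drives CRF6 in CRF6oe, the number of lines or clones, or whether replicate samples were grown apart. P-values therefore cover the spread between the 2 samples of each group alone, and that spread could be technical. Per the series description, the treatments served to look for genes that CRF6 controls.

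Hydrogen peroxide is a reactive oxygen species that plants make in photosynthesis, in respiration and during attack by pathogens, and that oxidises proteins at high dose. Chaperones bind the unfolded proteins that follow: small heat shock proteins hold them in solution, and HSP70 and HSP90 with their helpers refold them. CRF6 (CYTOKININ RESPONSE FACTOR 6) belongs to the AP2/ERF transcription factors and is known from work on cytokinin, leaf ageing and oxidative stress. Class III peroxidases and extensins, which recur below, act together in the plant cell wall, where the peroxidases use H2O2 to cross-link wall polymers.

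The 2 H2O2 arrays of CRF6oe correlated over genes at r = 0.977 and the 2 untreated arrays at r = 0.982, and the arrays of these 2 groups correlated with each other at 0.964 to 0.975. The median absolute difference between replicates was 0.262 on the log2 scale in CRF6oe with H2O2 and 0.241 in CRF6oe untreated. The CRF6oe arrays stood apart from those of the other genotypes, with r = 0.917 to 0.947 against them, and pairs of arrays from those other genotypes gave 0.948 to 0.991. In comparisons of CRF6oe with another line, genotype and array set therefore cannot be told apart. No feature with a single gene stood for CRF6, so its level was not analysed here and the label of the overexpressor was not checked on it.

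With H2O2, 233 genes rose and 200 fell in CRF6oe, 433 in all or 2.62% of the 16548 genes tested (limma, adjusted p under 0.05), and 3070 genes had an unadjusted p under 0.05. All levels and changes here are log2 array values, so that a change of 1 is a doubling and levels of different genes reflect their probes as well as their RNA. Of the rises 145 were at least 2-fold and 18 at least 4-fold, and of the falls 119 and 20. The median change was 1.10 over the rises, -1.11 over the falls and 0.05 over all genes. The genes that rose were mostly dim ones: their median level was 4.58 with H2O2 and 3.41 untreated. The genes that fell were brighter, with a median level of 5.41 with H2O2 and 6.75 untreated, and all genes stood at 4.8 and 4.76. Split into 4 bins of 4137 genes by mean level over all arrays, the lowest bin held 94 rises and 4 falls, the second 69 and 50, the third 44 and 82, and the highest 26 and 64. Without the dimmest 30% of features, 122 genes rose and 204 fell. Much of the list depends on single arrays. The count was 111 without H2O2 replicate 1, 496 without H2O2 replicate 2, 95 without untreated replicate 1 and 187 without untreated replicate 2, and 43 of the 433 genes (28 rises and 15 falls) were called in each of these 4 fits.

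**Figure D1:**
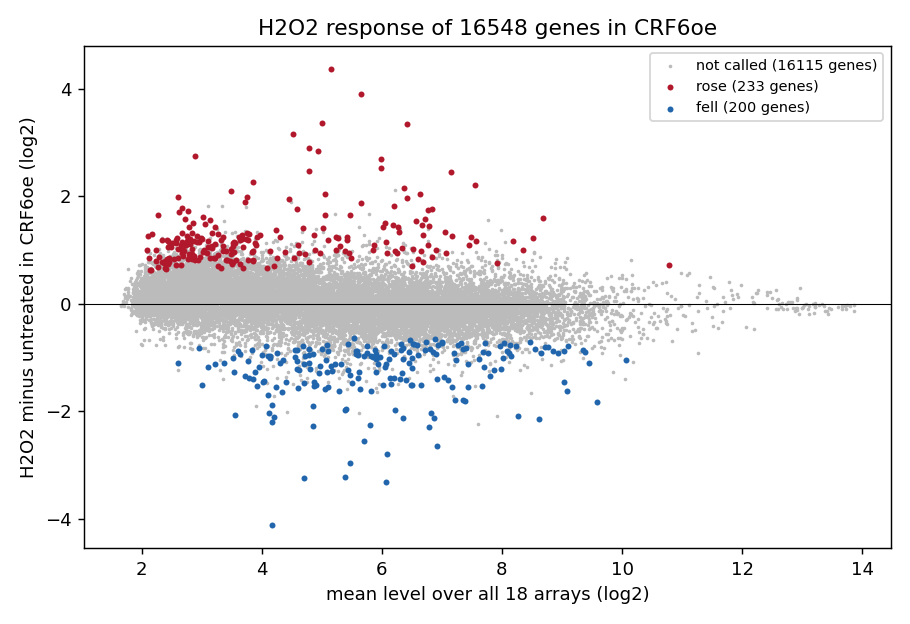
Change of each of the 16548 genes with H2O2 in CRF6oe (vertical axis, H2O2 minus untreated, log2) against its mean level over all 18 arrays (horizontal axis, log2), with 1 point per gene. The 233 genes that rose (red) crowd at low levels and the 200 that fell (blue) lie further right, with 94 rises and 4 falls in the lowest bin of levels and 26 and 64 in the highest.

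Small heat shock proteins led the rises. Of 19 such genes listed 12 were measured, 9 rose and 0 fell, against 1.41% of all genes called higher, and the median change of the 12 was 2.68 against 0.05 over all genes. AT1G53540, a class I small heat shock protein of the cytosol, stood at 8.80 and 7.95 with H2O2 and at 3.86 and 4.15 untreated. Its change of 4.37 ± 0.35 (SE), or 20.7-fold, was the largest rise on the arrays (adjusted p = 1.87e-05, limma). The H2O2 arrays lay far above the untreated ones. The called genes with the largest changes were named only where the H2O2 and untreated arrays did not overlap, which held for 45.8% of all genes, so for them the separation is a description. AT2G29500, of the same class, measured 9.44 and 9.34 with H2O2 against 6.43 and 5.67 untreated, a change of 3.34 ± 0.29. AT1G07400, a further class I gene, measured 9.58 and 9.0 with H2O2 against 7.09 and 6.43 untreated, a change of 2.53 ± 0.24. These genes were bright with H2O2. AT1G59860, also of class I, measured 6.32 and 6.31 with H2O2 against 4.97 and 4.83 untreated and rose by 1.42 ± 0.22, the smallest rise of the 9. The 4 class I genes thus rose by 2.67-fold to 20.7-fold.

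Members for other cell compartments rose as well. AT1G54050, a class III gene, stood at 8.29 and 7.94 with H2O2 and at 4.65 and 3.78 untreated, a change of 3.90 ± 0.30 or 14.9-fold (adjusted p = 1.43e-05, limma). AT5G37670, a peroxisomal small heat shock protein, measured 6.85 and 6.80 with H2O2 against 3.50 and 3.84 untreated, a change of 3.15 ± 0.38. AT5G51440, a mitochondrial one, measured 7.13 and 6.71 with H2O2 against 3.91 and 4.24 untreated, a change of 2.84 ± 0.25. In each of these 3 genes the lower H2O2 array was above the higher untreated array by more than the distance between replicates. AT1G52560, another member of the family, measured 8.13 and 7.22 with H2O2 against 4.26 and 4.35 untreated, a change of 3.37 ± 0.28. ATHSP22.0 (AT4G10250), which resides in the endoplasmic reticulum, was dim, with 4.59 and 3.62 with H2O2 against 2.52 and 2.29 untreated, and rose by 1.70 ± 0.26. The remaining 3 measured members did not pass: AT4G21870 changed by 0.33, AT2G19310 by 0.15 and AT5G54660 by -0.42. All 9 rises were called without each single array, 8 with only the 6 CRF6oe arrays fitted and 7 with only the 4 arrays compared.

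Of 33 listed HSP70, HSP90 and HSP100 chaperones and their helpers only 9 were measured, with a median change of 2.16. Of the 9, 5 rose while 0 fell, against 1.41% of all genes called higher. All 5 were helpers. AT1G71000, a DnaJ-domain protein of the kind that delivers clients to HSP70, stood at 6.35 and 6.52 with H2O2 and at 3.90 and 3.17 untreated, a change of 2.90 ± 0.24 (adjusted p = 1.87e-05, limma). Fes1A (AT3G09350), which binds and protects cytosolic HSP70, measured 7.91 and 7.79 with H2O2 against 5.28 and 5.05 untreated and rose by 2.69 ± 0.23. Hop3 (AT4G12400), an adaptor that joins HSP70 to HSP90, measured 7.0 and 6.61 with H2O2 against 4.61 and 4.06 untreated and rose by 2.47 ± 0.29. The untreated levels of the 3 lay at or below 5.28. AT2G20560, another DnaJ-domain gene, rose by 2.27 ± 0.27, and AT5G48570, a peptidyl-prolyl isomerase that works with HSP90, rose by 2.16 ± 0.35. The cytosolic HSP70 gene AT3G09440, stood at 9.40 and 9.18 with H2O2 and at 8.68 and 8.52 untreated, but its change of 0.69 ± 0.29 did not pass (adjusted p = 0.215, limma). AT5G48570 was not called without H2O2 replicate 1, and the other 4 helpers were called without each array.

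**Figure D2:**
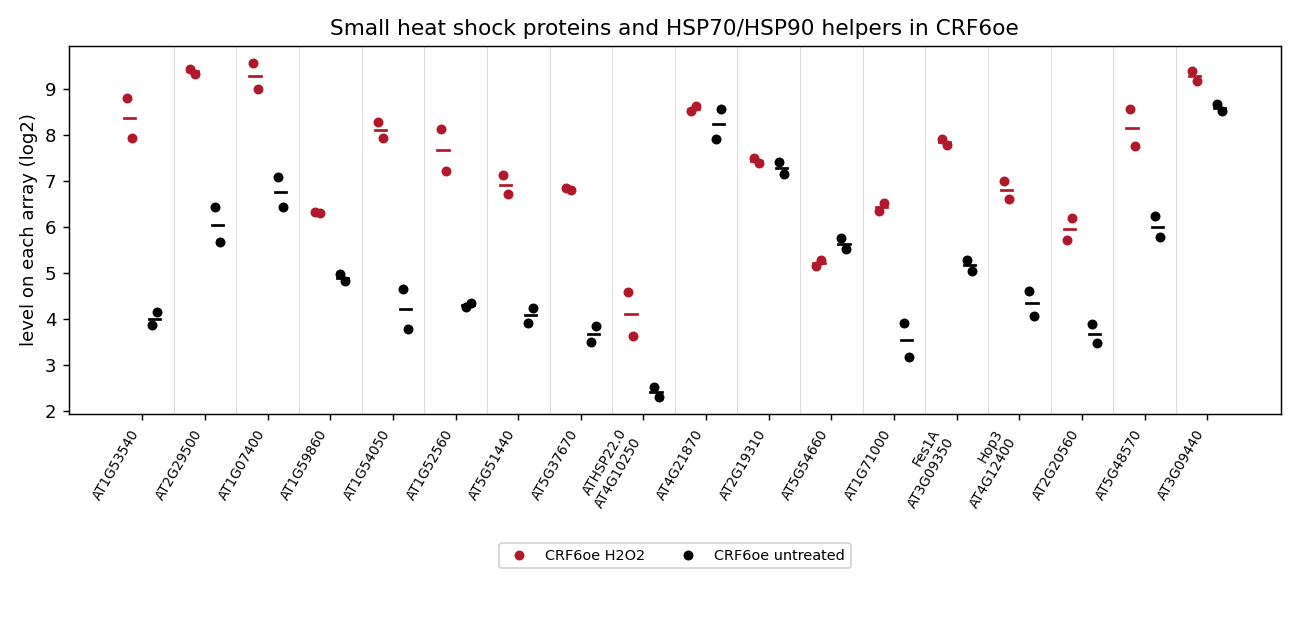
Levels (log2) of the 12 small heat shock proteins and 6 of the 9 measured HSP70 and HSP90 chaperones and helpers on the 2 CRF6oe H2O2 arrays (red) and the 2 CRF6oe untreated arrays (black), with 1 point per array and a line at each group mean. The H2O2 points lie above the untreated points for 14 genes that passed the test, from AT1G53540 with a change of 4.37 to AT1G59860 with 1.42, while AT4G21870, AT2G19310, AT5G54660 and AT3G09440 did not pass.

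The same genes were followed in the other lines, which share no array with CRF6oe. In crf6 7 of the 12 small heat shock proteins rose (0.864% of all genes did) and in WT 9 (1.5% of all genes), with median changes of 1.33 and 2.23 against 2.68 in CRF6oe. AT1G53540 changed alike in size, by 4.37 in CRF6oe, 3.63 in crf6 and 4.43 in WT, and its differences between lines did not pass (adjusted p = 0.601 against crf6 and 0.978 against WT, limma interaction). 3 members responded more in CRF6oe than in crf6 by the test of the difference itself, which called 0.193% of all genes higher. AT5G37670 measured 5.09 and 4.42 in crf6 with H2O2 and 4.15 and 4.62 in crf6 untreated, so that the peroxisomal gene changed by 0.37 in crf6 against 3.15 in CRF6oe, a difference of 2.78 ± 0.54 (adjusted p = 0.0477). AT1G54050 differed by 2.23 ± 0.42 and AT1G52560 by 2.14 ± 0.40 (adjusted p = 0.046 for each). Those 3 differences lie close to the threshold, and none of them was called in every fit that left out 1 array. Against WT the difference of AT2G29500, with a change of 3.34 in CRF6oe and 5.18 in WT, did not pass (adjusted p = 0.067). Its untreated level was 6.05 ± 0.54 in CRF6oe and 4.52 ± 0.38 in WT (SD, n = 2 each), while its level with H2O2 was 9.39 ± 0.07 in CRF6oe and 9.70 ± 0.21 in WT.

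**Figure D3:**
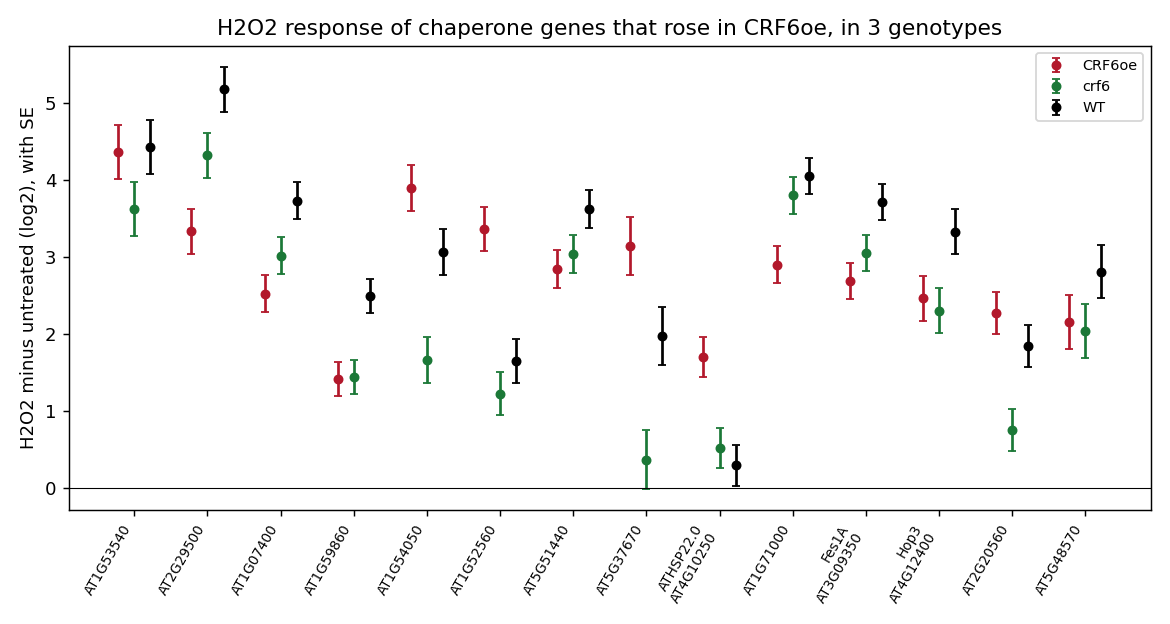
Response to H2O2 (H2O2 minus untreated, log2, with its SE from the fit) of the 14 chaperone genes that rose in CRF6oe, in CRF6oe (red), crf6 (green) and WT (black). AT1G53540 lies between 3.63 and 4.43 in the 3 lines, while AT5G37670 lies at 3.15 in CRF6oe, 0.37 in crf6 and 1.98 in WT.

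Beyond the chaperones, AT5G05220, a protein-coding gene with no role given here, was among the 15 largest rises. It measured 5.77 and 5.49 in CRF6oe with H2O2 against 3.17 and 2.59 in CRF6oe untreated, a change of 2.75 ± 0.23 or 6.73-fold (adjusted p = 1.87e-05, limma). In WT it measured 2.59 and 2.76 with H2O2 against 2.05 and 2.52 untreated. The response was larger in CRF6oe than in WT by 2.36 ± 0.32 (adjusted p = 0.0067) and larger than in crf6 by 2.20 ± 0.32 (adjusted p = 0.019), and the difference from WT was called without each array. AT5G54165 rose in all 3 lines. It measured 11.12 and 11.33 in CRF6oe with H2O2 against 9.20 and 8.32 untreated, and 9.50 and 8.70 in WT with H2O2 against 4.74 and 4.16 untreated, so the change was 2.46 in CRF6oe and 4.65 in WT, a difference of -2.19 ± 0.44 (adjusted p = 0.0429). In CRF6oe this gene was thus bright before treatment as well as after it. AT1G19450, a sugar transporter of the ERD6-like family, measured 9.40 and 8.79 in CRF6oe with H2O2 against 7.63 and 6.15 untreated, a change of 2.21 ± 0.46 that was not called without H2O2 replicate 1 or untreated replicate 2. Its changes in WT and crf6 were -0.02 and -0.13, but the differences did not pass (adjusted p = 0.156 and 0.169).

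Among genes tied to mitochondrial stress, 3 of 5 measured rose, where 1.41% of all genes did, with a median change of 1.08 over the 5. Besides AT5G51440 they were NDB2 (AT4G05020), an external NAD(P)H dehydrogenase of mitochondria, and AT5G09570. NDB2 measured 6.67 and 6.75 with H2O2 against 5.56 and 4.86 untreated and rose by 1.5 ± 0.23 (adjusted p = 0.00555, limma). AT5G09570 rose by 1.08 ± 0.24, a call that 3 of the 4 single arrays ended. Of 45 listed genes of the ascorbate, glutathione and superoxide systems, whose enzymes remove reactive oxygen, only 10 were measured. In CRF6oe 0 of the 10 passed (limma, 2 at an unadjusted p under 0.05), where 2.62% of all genes did, and the changes ran from -0.76 to 0.48. Without H2O2 replicate 2, 1 of them was called higher. In crf6 2 rose (0.864% of all genes did) and in WT 2 rose (1.5% of all genes), and 0 of the 10 passed either test of the difference. Of 14 measured glutathione S-transferases 1 passed, where 2.62% of all genes did. This was GSTU18 (AT1G10360), at 5.54 and 5.66 with H2O2 against 4.73 and 4.58 untreated. Its change of 0.95 ± 0.21 (adjusted p = 0.0317) was lost without any one of the 4 arrays. Without untreated replicate 2 the family had 0 rises and 2 falls, so no direction holds for it. GSTU25 (AT1G17180), which rose by 3.42 in WT, had a change of 1.13 ± 0.48 in CRF6oe that did not pass (adjusted p = 0.22).

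UDP-glycosyltransferases, which attach sugars to small molecules such as phenylpropanoids and hormones, had calls in both directions: of 55 measured, 3 rose and 2 fell, where 1.41% and 1.21% of all genes did, and the median change was -0.07. The other lines were mixed as well, with 5 rises and 3 falls in crf6 and 6 rises and 2 falls in WT. Of all genes, 0.864% rose and 1.09% fell in crf6, and 1.5% rose and 1.37% fell in WT. UGT73B5 (AT2G15480) measured 8.47 and 8.47 with H2O2 against 7.34 and 6.09 untreated, a change of 1.76 ± 0.34 (adjusted p = 0.015, limma). UGT73B4 (AT2G15490) rose by 1.47 ± 0.34 and UGT71C1 (AT2G29750) by 0.85 ± 0.19. The largest fall of the family was UGT84A3 (AT4G15490), a glucosyltransferase for hydroxycinnamic acids, at 4.81 and 5.78 with H2O2 against 7.65 and 8.84 untreated. It fell by 2.95 ± 0.63 on the log2 scale (adjusted p = 0.0255). UGT72E1 (AT3G50740) fell by 1.34 ± 0.27. Each of these 5 calls was lost without at least 2 of the single arrays. 3 members that rose in WT had lower responses in CRF6oe by the test of the difference, which called 0.242% of all genes lower: UGT73B3 (AT4G34131) by -2.37 ± 0.46, UGT87A2 (AT2G30140) by -2.05 ± 0.41 and UGT73B2 (AT4G34135) by -2.04 ± 0.43. UGT87A2 measured 9.41 and 9.92 in CRF6oe with H2O2 against 10.31 and 10.21 in CRF6oe untreated, and 10.82 and 10.38 in WT with H2O2 against 9.59 and 8.71 in WT untreated.

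Of 6 measured genes of the abscisic acid and dehydration response 1 rose (1.41% of all genes did), the dehydrin LTI30 (AT3G50970). It measured 7.72 and 7.43 with H2O2 against 5.79 and 5.43 untreated, a change of 1.97 ± 0.25 or 3.92-fold (adjusted p = 0.000978, limma), and was called under every alternative tried. COR15A (AT2G42540), a chloroplast protein of cold acclimation, stood at 8.16 and 7.49 in CRF6oe with H2O2 and at 7.97 and 7.64 in CRF6oe untreated, a change of 0.02. In WT it measured 10.68 and 11.42 with H2O2 against 8.46 and 8.98 untreated, and the difference of the responses was -2.31 ± 0.48 (adjusted p = 0.0479). KIN2 (AT5G15970), another cold- and dehydration-induced gene, had a change of -0.70 in CRF6oe and 1.14 in WT, a difference of -1.84 ± 0.33 (adjusted p = 0.0285). Both differences were lost when single arrays were left out. Transcription factors of the stress list were measured for 4 genes. In CRF6oe 0 of the 4 passed (limma, 1 at an unadjusted p under 0.05), where 2.62% of all genes did. In crf6 2 rose (0.864% of all genes did) and in WT 3 (1.5% of all genes), and 0 of the 4 passed either test of the difference. Among them, STZ (AT1G27730) had levels of 10.27 and 10.87 in CRF6oe with H2O2 and 10.12 and 9.67 in CRF6oe untreated, against 11.11 and 10.12 in WT with H2O2 and 8.68 and 8.43 in WT untreated. The difference of its responses did not pass (adjusted p = 0.231).

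Genes of the cell wall were among the largest falls. Of 2 measured arabinogalactan and proline-rich proteins 0 passed, and of 4 measured pectin methylesterases and polygalacturonases 0 passed, where 2.62% of all genes did. Lists this small cannot be told apart from all genes. Of 16 measured extensins, the hydroxyproline-rich proteins of the wall, 3 fell and 0 rose, against 1.21% of all genes called lower, with a median change of -0.63. In crf6 4 fell (1.09% of all genes did), with a median of -0.57, and in WT 4 fell (1.37% of all genes), with a median of -1.02. AT3G54580 measured 3.63 and 3.19 with H2O2 against 7.85 and 7.22 untreated. It fell by 4.12 ± 0.31 on the log2 scale, or 17.4-fold, the largest fall on the arrays (adjusted p = 1.43e-05, limma), and was called under every alternative. The 2 groups of arrays were far apart. In WT the same gene measured 2.25 and 2.77 with H2O2 against 3.97 and 3.35 untreated, so the response in CRF6oe was lower by -2.97 ± 0.44 (adjusted p = 0.012, lost without CRF6oe untreated replicate 1 or WT untreated replicate 2), and the untreated level was 7.53 ± 0.45 in CRF6oe and 3.66 ± 0.44 in WT (SD, n = 2 each). AT3G28550 measured 4.26 and 5.96 with H2O2 against 8.21 and 8.43 untreated, and its fall of 3.21 ± 0.56 was lost without 3 of the 4 arrays. AT1G26250 measured 4.49 and 4.89 with H2O2 against 6.26 and 6.30 untreated and fell by 1.59 ± 0.29, a call also lost without 3 of the 4.

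Class III peroxidases were measured for 64 of 73 listed genes, with a median change of -0.20. Of the 64, 6 fell while 0 rose, against 1.21% of all genes called lower. With only the 6 CRF6oe arrays fitted, 0 peroxidases were called, AT1G49570 included (adjusted p = 0.0557, limma). AT1G49570 measured 5.54 and 5.33 with H2O2 against 9.0 and 8.50 untreated, a change of -3.31 ± 0.39 or 9.93-fold (adjusted p = 0.000585, limma). AT5G19890 measured 5.93 and 5.41 with H2O2 against 8.96 and 7.98 untreated, a change of -2.80 ± 0.45. In both genes the 2 groups of arrays were well separated, but AT5G19890 was not called without untreated replicate 1. The other 4 falls were smaller, at -1.51 for AT3G49960, -1.01 for AT3G03670, -0.92 for AT1G71695 and -0.92 for AT2G38380, and each was lost without 3 or 4 of the single arrays. In crf6 21 peroxidases fell and 1 rose (1.09% of all genes fell), and in WT 19 fell (1.37% of all genes), with medians of -0.34 in each line. By the test of the difference, which called 0.332% of all genes higher in CRF6oe than in WT, 3 members that fell in WT and did not pass in CRF6oe differed between the lines. AT3G01190 measured 5.17 and 4.83 in CRF6oe with H2O2 against 4.82 and 5.28 in CRF6oe untreated, and 3.37 and 3.98 in WT with H2O2 against 6.02 and 6.53 in WT untreated, a difference of 2.55 ± 0.41 (adjusted p = 0.0183). AT4G30170 differed by 2.35 ± 0.41 and AT5G64100 by 1.80 ± 0.36 (adjusted p = 0.0285 and 0.0429). In all 3 peroxidases the CRF6oe untreated arrays were below the WT untreated arrays and the CRF6oe H2O2 arrays above the WT H2O2 arrays. These levels enter the difference by which the 3 genes were chosen, so the pattern is only a description. None of the 3 differences was called in every fit that left out 1 array.

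Of 37 measured leucine-rich-repeat receptor kinases of subfamily I, membrane kinases with an extracellular sensing domain, 2 fell in CRF6oe (1.21% of all genes fell), 9 in crf6 (1.09%) and 9 in WT (1.37%). The 2 were the related neighbours AT1G51830 and AT1G51840, between which shared signal cannot be told apart. AT1G51830 measured 5.85 and 5.72 with H2O2 against 7.66 and 8.16 untreated, a change of -2.13 ± 0.32 (adjusted p = 0.00435, limma). AT1G51840 measured 5.19 and 6.52 with H2O2 against 8.08 and 8.91 untreated, a change of -2.64 ± 0.49 that was lost without H2O2 replicate 1 or untreated replicate 2. In WT the pair changed by -3.88 and -3.87, and the differences did not pass (adjusted p = 0.111 and 0.481). 3 other kinases of the subfamily fell in WT and differed by the test: AT1G05700 stood at 4.26 and 3.83 in CRF6oe with H2O2 and at 4.02 and 4.08 in CRF6oe untreated, against 3.61 and 3.28 in WT with H2O2 and 6.06 and 6.10 in WT untreated. Its difference was 2.63 ± 0.41 against WT (adjusted p = 0.0165) and 2.44 ± 0.41 against crf6 (adjusted p = 0.0389). AT1G07560 differed from WT by 2.18 ± 0.41 and AT2G28960 by 2.12 ± 0.41 (adjusted p = 0.0367 and 0.0397). These 3 kinases had lower untreated arrays in CRF6oe than in WT, levels that likewise enter the difference by which they were chosen. None of the differences was called in every fit without 1 array.

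**Figure D4:**
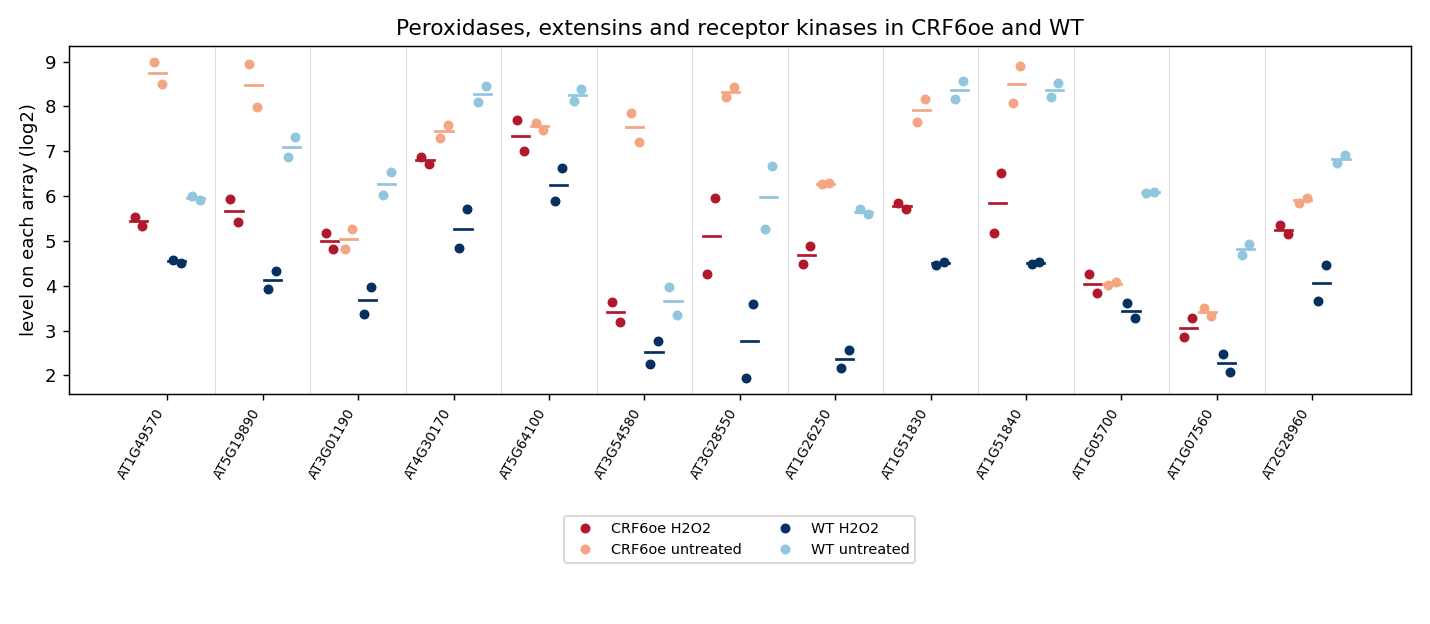
Levels (log2) of 5 class III peroxidases, 3 extensins and 5 receptor kinases on each array of CRF6oe H2O2 (dark red), CRF6oe untreated (light red), WT H2O2 (dark blue) and WT untreated (light blue), with a line at each group mean. The extensin AT3G54580 averages 3.41 with H2O2 and 7.53 untreated in CRF6oe against 2.51 and 3.66 in WT, while AT3G01190, AT4G30170, AT5G64100, AT1G05700, AT1G07560 and AT2G28960 fall in WT and did not pass in CRF6oe.

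Further large falls included secreted proteins and enzymes. AT5G38940, a germin-like protein of the wall, measured 6.67 and 6.21 with H2O2 against 8.92 and 9.08 untreated, a change of -2.56 ± 0.37 (adjusted p = 0.00331, limma), called under every alternative. AT3G05950, of the same family, measured 4.47 and 4.21 with H2O2 against 6.92 and 6.31 untreated and changed by -2.27 ± 0.25, also called under every alternative. In WT its change was -0.14, and the responses differed by -2.13 ± 0.36 (adjusted p = 0.0225), while in crf6 it changed by -1.89. BGLU22 (AT1G66280), a beta-glucosidase, measured 8.76 and 7.53 with H2O2 against 10.79 and 9.79 untreated, a change of -2.14 ± 0.36 that was lost without untreated replicate 1. AT4G22610, a lipid-transfer-like protein, changed by -2.26 ± 0.43, and AT5G24200 by -3.23 ± 0.73, a call lost without any one of the 4 arrays. EXLB1 (AT4G17030), an expansin-like protein, was the 1 call among 33 expansins and xyloglucan endotransglucosylases, where 2.62% of all genes were called. Its change of -1.12 ± 0.22 (adjusted p = 0.0158, limma) was lost without 3 of the 4 arrays, and without H2O2 replicate 2 the 1 call of this list was a rise.

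HTB2 (AT5G22880), which encodes a histone H2B, measured 6.37 and 5.71 with H2O2 against 9.38 and 7.28 untreated. The group levels were 6.04 ± 0.47 with H2O2 and 8.33 ± 1.49 untreated (SD, n = 2 each), with the untreated replicates far apart, and the fall of 2.29 ± 0.46 on the log2 scale (adjusted p = 0.0188, limma) was lost without either H2O2 array or without untreated replicate 1. On the CRF6oe arrays with BA, which share the untreated arrays, HTB2 measured 6.25 and 6.02. EXLB1 also stood low there, at 5.12 and 5.50 with BA and 5.98 and 5.63 with H2O2 against 7.0 and 6.87 untreated. LBD29 (AT3G58190), a gene of lateral root formation, measured 3.10 and 3.28 with H2O2 and 2.94 and 3.02 with BA, against 3.92 and 4.12 untreated. It was the 1 call with H2O2 among 6 measured auxin genes, where 2.62% of all genes were called. Its fall with H2O2 was lost without 3 of the 4 arrays (adjusted p of 0.0745 to 0.146) and with only the 6 CRF6oe arrays fitted (adjusted p = 0.151, limma). By contrast AT1G53540 measured 3.58 and 4.30 with BA, near its untreated 3.86 and 4.15. In CRF6oe with BA 35 genes were called, 0.212% of those tested.

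The ATG8 family, ubiquitin-like proteins that are joined to the autophagosome membrane, was measured for 9 genes, and 4 fell with H2O2 in CRF6oe while 0 rose, against 1.21% of all genes called lower and 1.41% called higher. ATG8B (AT4G04620) measured 6.92 and 6.76 with H2O2 against 8.24 and 8.03 untreated, a change of -1.29 ± 0.30 (adjusted p = 0.0371, limma). APG8A (AT4G21980) changed by -0.97 ± 0.20, ATG8C (AT1G62040) by -0.93 ± 0.19 and ATG8D (AT2G05630) by -0.90 ± 0.19. All 9 changes were below 0, from -1.29 to -0.03 with a median of -0.41, against a median of -0.03 in WT and -0.05 in crf6, where 0 were called (limma, 1 in WT and 0 in crf6 at an unadjusted p under 0.05). The differences between lines did not pass for the 9 genes. Their median untreated level was 8.12 in CRF6oe and 6.34 in WT. The 4 calls are fragile, since 0 ATG8 genes were called with only the 6 CRF6oe arrays fitted and 0 to 2 without single arrays.

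**Figure D5:**
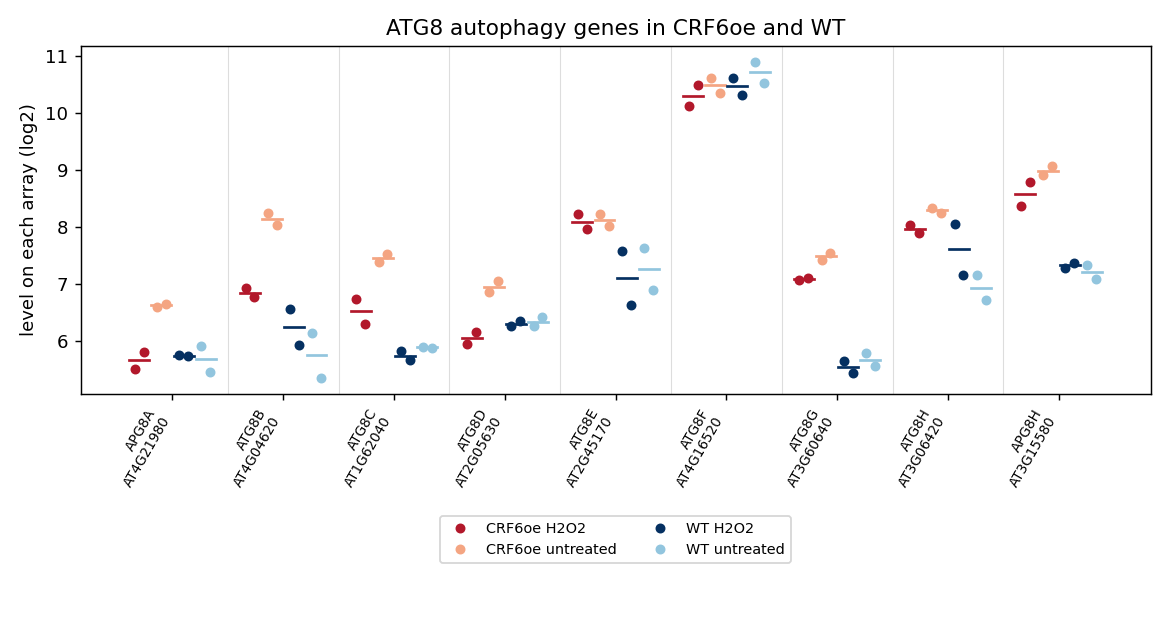
Levels (log2) of the 9 measured ATG8 genes on each array of CRF6oe H2O2 (dark red), CRF6oe untreated (light red), WT H2O2 (dark blue) and WT untreated (light blue), with a line at each group mean. ATG8B averages 6.84 with H2O2 and 8.13 untreated in CRF6oe, and 6.25 and 5.74 in WT, and ATG8E and ATG8F changed by -0.03 and -0.18 in CRF6oe without passing.

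Markers of tissues and organelles were followed in the same arrays. Of 4 measured light-harvesting genes and 63 plastid-encoded genes 0 passed in CRF6oe (limma, 1 and 3 at an unadjusted p under 0.05), where 2.62% of all genes did. Their median changes were 0.19 and -0.04. The plastid-encoded genes had a median untreated level of 12.76 in CRF6oe, where the highest values on the untreated arrays were 14.16 and 14.21. Whether signal near the top of the scale hid changes was not tested, nor how poly(A)-primed labelling samples plastid RNA. Root hair growth genes were measured for 5 of 32 listed and 0 passed in CRF6oe, where 2.62% of all genes did (1 at an unadjusted p under 0.05). Their changes ran from -0.95 to -0.08 with a median of -0.34, against medians of -1.43 in crf6 and -1.47 in WT. In each of those lines 3 fell (1.09% of all genes in crf6 and 1.37% in WT). For the root hair genes 0 of 5 passed the test of the difference from either line. In whole seedlings fewer cells of a type and less RNA per cell cannot be told apart. Of the cytokinin genes 4 were measured and 0 passed, where 2.62% of all genes did (1 at an unadjusted p under 0.05). Among them were ARR15 (AT1G74890) at 2.53 and 2.94 with H2O2 against 2.95 and 2.69 untreated, and RR16 (AT2G40670) at 2.97 and 2.41 with H2O2 against 3.22 and 3.60 untreated. With BA, which shares the untreated arrays, these response regulators rose in CRF6oe by 3.81 and 3.71 (limma). Cytochromes P450 were measured for 26 genes and 0 passed, where 2.62% of all genes did (2 at an unadjusted p under 0.05). Of all 16548 genes, 3070 had an unadjusted p under 0.05. Counts of 0 in lists this small do not set them apart from all genes. Listed heat shock transcription factors, jasmonate and salicylic acid genes had no measured member among the genes with a feature of their own. The patterns for proteasome and ribosomal protein genes matched no symbol or synonym, so whether such genes were measured is not known.

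Over all genes, the CRF6oe calls were set beside the other lines. Of the 233 rises, 39 were also called higher in crf6 (0.864% of all genes were) and 46 in WT (1.5% of all genes), and 186 were called higher in neither. Of the 200 falls, 23 were also called lower in crf6 (1.09% of all genes were) and 30 in WT (1.37% of all genes), and 165 in neither. These counts compare thresholds, and a missing call in another line does not show a different response. Of the 233 rises, 161 had a change above 0 in crf6 and 166 in WT, with medians of 0.15 and 0.14. Of the 200 falls, 138 had a change below 0 in crf6 and 147 in WT, with medians of -0.20 in each. Over all genes the median change was 0.009 in crf6 and -0.025 in WT. The share of all genes with each sign in those lines was not counted. The test of the difference called 12 of the rises and 9 of the falls against crf6, and 12 of the rises and 17 of the falls against WT. The rises and falls were chosen on the same CRF6oe arrays that enter this test. These counts can therefore not be set against the shares over all genes. By the test of the difference itself 49 genes responded differently in CRF6oe and crf6 (0.296% of genes, with 32 or 0.193% higher and 17 or 0.103% lower) and 95 in CRF6oe and WT (0.574%, with 55 or 0.332% higher and 40 or 0.242% lower), with 1949 and 2240 genes at an unadjusted p under 0.05. The usual pattern of a higher difference from WT was a gene that fell in WT and did not pass in CRF6oe, which held for 39 of the 55, and 9 rose in CRF6oe with no call in WT. Of the 40 lower differences 21 rose in WT and did not pass in CRF6oe, and 13 fell in CRF6oe with no call in WT. With only the arrays of the 4 groups compared, 11 genes differed from crf6 and 1 from WT.

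A few of these genes moved in opposite directions. AT5G52450, a transporter of the MATE family that exports small molecules, measured 5.21 and 5.43 in CRF6oe with H2O2 against 6.11 and 6.36 in CRF6oe untreated, a change of -0.91 ± 0.17 (adjusted p = 0.014, limma). In crf6 it measured 6.66 and 6.62 with H2O2 against 5.20 and 5.61 untreated, and in WT 6.52 and 6.60 with H2O2 against 5.71 and 5.77 untreated. The difference was -2.14 ± 0.24 against crf6 (adjusted p = 0.00141) and -1.73 ± 0.24 against WT (adjusted p = 0.00817), and both were called without each array. AT1G53610, whose feature is among the dimmest 30%, rose by 0.92 ± 0.22 in CRF6oe, a call lost without 3 of the 4 arrays. The rise was also not called with quantile normalization (adjusted p = 0.0754, limma) or with only the 6 CRF6oe arrays fitted (adjusted p = 0.198). In WT the gene fell by 1.73 on the log2 scale, a difference of 2.64 ± 0.31 (adjusted p = 0.00586). The tests against crf6 and against WT share the 4 CRF6oe arrays.

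Other genes did not pass in CRF6oe while changing elsewhere. AT4G32950, a protein phosphatase of type 2C, measured 4.74 and 4.94 in CRF6oe with H2O2 against 4.32 and 5.00 in CRF6oe untreated, a change of 0.18 that did not pass. In crf6 it measured 4.08 and 3.76 with H2O2 against 7.52 and 7.05 untreated, and the difference of 3.54 ± 0.40 (adjusted p = 0.00141, limma) was the largest against crf6. In WT it changed by -2.08 and the difference was 2.26 ± 0.40. AT5G43520, a protein with cysteine- and histidine-rich C1 domains, had a change of 0.87 in CRF6oe that did not pass and fell by 2.30 on the log2 scale in WT, a difference of 3.17 ± 0.40 (adjusted p = 0.00586). The serine carboxypeptidase-like gene scpl28 (AT2G35770) measured 6.19 and 6.10 in CRF6oe with H2O2 against 5.47 and 5.76 untreated, and 4.60 and 4.11 in WT with H2O2 against 6.16 and 6.74 untreated, a difference of 2.63 ± 0.36 (adjusted p = 0.0067). AT4G25090, an NADPH oxidase of the family that makes superoxide at the cell surface, changed by 0.49 in CRF6oe without passing and by -1.82 in crf6 and -1.76 in WT, with differences of 2.31 ± 0.35 and 2.25 ± 0.35. AT2G41410, an EF-hand calcium-binding protein, had the opposite pattern, with a change of -0.65 in CRF6oe that did not pass and rises of 1.41 in crf6 and 1.04 in WT, and differences of -2.06 ± 0.35 and -1.69 ± 0.35. AT2G41730 stood at 3.81 and 3.76 in CRF6oe with H2O2 and at 3.77 and 3.81 in CRF6oe untreated, against 7.19 and 6.80 in WT with H2O2 and 3.69 and 4.12 in WT untreated. Its difference from WT of -3.10 ± 0.65 (adjusted p = 0.0483) was lost without any one of the 8 arrays. Of the named differences, AT5G05220, AT5G52450, AT1G53610, scpl28 and AT5G43520 against WT, and AT4G32950 and AT5G52450 against crf6, were called without each array of their groups, and each of the other named differences was lost without at least 1 array.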

How the data were processed

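Poly(A)-primed, biotin-labelled cRNA was measured on one-colour arrays, per the labels' protocols. The authors deposited 1 value per feature and array, taken as log2 from the values themselves, whose scale is not stated per the labels. The sources used here do not state background correction, normalization, summary or batch. The values were used as deposited.

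Gene names came from the probe table of the platform, and codes were looked up in RefSeq for TAIR10.1 (16574 features matched and 148 did not). The 21686 features with several genes or none listed enter no gene count. Using limma 3.58.1 in R 4.3.3, the means of the 9 groups were fitted to all 18 arrays (9 residual and 5.63 prior degrees of freedom), with two-sided contrasts and Benjamini-Hochberg adjustment over 16722 features, and calls were made at 0.05. Errors of changes are SE from this fit (median 0.230 for a response and 0.325 for a difference of responses). On simulated data the fit recovered 42% of log2 changes of 1 and 92% of 2 in the CRF6oe response (4 false of 121 calls). The simulated noise was drawn independently for each value, with no error shared by genes of an array. The false calls there therefore give no rate for the calls on the real arrays. The number of arrays limits the precision.

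Genes named are the 15 largest rises and falls and up to 8 members of each list, taken from called genes whose CRF6oe arrays do not overlap. Without that condition they include every member of lists of up to 8, the 6 largest called differences in each direction, and any cytokinin gene. Other list members, AT1G59860, GSTU25, and list members with a called difference were chosen after their values were seen. Gene families given by pattern were matched to RefSeq symbols and synonyms, and plastid genes by chromosome. Members and lists were chosen with earlier results of these data known. Alternatives varied the arrays fitted, scaling, dim features, features tested, moderation, replicate block and single arrays.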

Additional observations from a re-analysis of the deposited data

Results flagged for a closer look

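The response to H2O2 differed by an interaction test between CRF6oe and another line for the genes below, and each difference is given on the log2 scale as the CRF6oe response minus the other line's. Differences from WT above 0 were 3.43 for AT3G20380 (a TRAF-like protein), 3.17 for AT5G43520, 2.64 for AT1G53610, 2.63 for scpl28 (AT2G35770), 2.36 for AT5G05220, 2.26 for the phosphatase AT4G32950 and 2.25 for the NADPH oxidase AT4G25090. The receptor kinases AT1G05700, AT1G07560 and AT2G28960 stood at 2.63, 2.18 and 2.12, and the peroxidases AT3G01190, AT4G30170 and AT5G64100 at 2.55, 2.35 and 1.80.

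Differences from WT below 0 were -3.10 for AT2G41730, -2.97 for the extensin AT3G54580, -2.73 for AT4G08555, -2.71 for AT1G02470, -2.19 for AT5G54165, -2.13 for the germin-like AT3G05950, -1.73 for the transporter AT5G52450 and -1.69 for the calcium-binding AT2G41410. The glycosyltransferases AT4G34131, AT2G30140 and AT4G34135 stood at -2.37, -2.05 and -2.04, and the cold-induced COR15A (AT2G42540) and KIN2 (AT5G15970) at -2.31 and -1.84.

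Differences from crf6 above 0 were 3.54 for AT4G32950, 2.57 for UGT72E2 (AT5G66690), 2.44 for AT1G05700, 2.31 for AT4G25090, 2.26 for AT3G01190, 2.20 for AT5G05220, 2.09 for AT5G43520, 1.87 for scpl28 and 1.74 for AT1G53610. The small heat shock proteins AT5G37670, AT1G54050 and AT1G52560 stood at 2.78, 2.23 and 2.14. Below 0 were AT1G02470 at -2.77, AT3G54580 at -2.76, UGT87A2 (AT2G30140) at -2.34, AT5G52450 at -2.14, AT1G76470 at -2.09 and AT2G41410 at -2.06. AT1G02470 measured 3.91 and 4.05 in CRF6oe with H2O2 against 6.29 and 5.90 in CRF6oe untreated, and 4.43 and 4.39 in WT with H2O2 against 4.22 and 3.40 in WT untreated. AT3G20380 measured 6.03 and 5.58 in CRF6oe with H2O2 against 5.09 and 6.74 in CRF6oe untreated, where the arrays overlap, and 3.62 and 3.82 in WT with H2O2 against 7.44 and 7.09 in WT untreated.

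Outside the genes analysed, 206 of the 21686 features without a single gene (0.95%) were called for H2O2 against untreated in CRF6oe when all features were tested together.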

How the results depend on the processing

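The 433 calls of H2O2 against untreated in CRF6oe became 185 with all features tested, 39 with only the 6 CRF6oe arrays, 30 with only the 4 arrays compared and 95 to 496 without single arrays. Called genes of the lists, 40 in all, became 15, 16 and 22 to 35 in the last 3 of these. The 95 differences from WT became 10 with all features, 36 with only untreated and H2O2 arrays, 1 with only the groups compared and 12 to 100 without single arrays. The 49 differences from crf6 became 4, 7, 11 and 4 to 68, and 29 with arrays centred on their medians. Centring gave 238 rises and 159 falls in CRF6oe. With replicate number as a block the counts were 452 in CRF6oe, 97 against WT and 28 against crf6. Replicate differences of CRF6oe H2O2 correlated with those of CRF6oe untreated at 0.167 and with other groups at -0.153 to 0.021. The labels do not say whether equal replicate numbers pair samples, and these correlations cannot decide it. The balance of calls turned under some alternatives: in CRF6oe to 122 rises and 204 falls without the dimmest 30% of features and to 233 and 239 with an intensity trend, against WT to 40 higher and 45 lower differences without WT H2O2 replicate 2 and to 0 and 1 with only the groups compared, and against crf6 to 17 each without CRF6oe untreated replicate 2. Glutathione S-transferases had 0 rises and 2 falls without CRF6oe untreated replicate 2, and expansins and xyloglucan endotransglucosylases 1 rise and 0 falls without CRF6oe H2O2 replicate 2. No called change or difference of a named gene changed sign. Of 54 named genes called in CRF6oe, 22 kept the call without each array and 17 under all alternatives. The corresponding counts were 5 and 0 of 26 differences from WT, and 2 and 1 of 18 from crf6. The number of arrays limits all of these tests.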
